A study of Rattus norvegicus with 18 samples.

Results

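Left lungs of rats whose left hilum had been clamped were compared at 2 times after blood flow returned, with 3 lungs reperfused for 3 h set against 3 lungs reperfused for 30 min. These 6 arrays were chosen by their labels from the 18 arrays of the study, and all 15866 probe sets that are not array controls were considered. The animals were anaesthetised, ventilated male Sprague-Dawley rats, an outbred laboratory stock, and every operated animal had a tracheotomy, a left thoracotomy and a warm clamp of 2 h on the left hilum, the stalk that carries the airway and vessels. The unclamped right lungs of the operated rats were taken at the same 2 times, with 3 lungs at 30 min and 3 lungs at 3 h. A further 6 control lungs came from rats killed straight after anaesthesia, with no ventilation or surgery given in their labels. Lungs at 3 h had thus also had more time under anaesthesia and on the ventilator than lungs at 30 min, which cannot be told apart from the length of reperfusion within the left lung. Total RNA of frozen lung was hybridised to Affymetrix rat 230A arrays. The measure is the signal of a probe set, the MAS5 summary of its probes, on a linear scale on which every array has a trimmed mean of 500.1.

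Ischaemia followed by reperfusion stresses cells by lack of oxygen, by oxidants formed when oxygen returns and by damage to proteins. Damaged cytosolic proteins set free the heat shock factor HSF1, which binds repeated GAA units in promoters, the heat shock elements, and drives the genes of the Hsp70, Hsp110, Hsp40 and small heat shock protein families. Unfolded proteins within the endoplasmic reticulum are sensed separately, by IRE1, ATF6 and PERK, and raise the chaperones of that compartment. In transplanted lungs the same sequence of ischaemia and reperfusion can lead to oedema and inflammation.

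A probe set was tested where at least 3 arrays exceeded a signal of 174, which left 10533 probe sets and 7728 genes, each gene read from its brightest probe set. Differences are given on the log2(signal + 25) scale, which understates changes of dim genes, with limma's standard error (SE). That SE takes its spread from the groups of all 18 arrays, not from the left lungs alone. A gene was called at a Benjamini-Hochberg adjusted p under 0.05. Lung identity was plain on all 18 arrays: the surfactant gene Sftpc had signals of 11825, 11709 and 12215 in the left lungs at 3 h and of 14042, 10573 and 12260 at 30 min, and the club cell gene Scgb1a1 of 10234, 11152 and 11214 and of 15991, 11051 and 11985. RNA quality differed between the groups. The signal of the 3′ beta-actin probe set over that of the 5′ one, a measure that rises as RNA degrades, was 4.81, 1.53 and 2.30 in the left lungs at 30 min (replicates 1 to 3) and 1.61, 1.49 and 1.62 at 3 h, against 1.31 to 1.54 in the control lungs, so that replicates 1 and 3 at 30 min stood apart. The third array of raised ratio was a right lung at 30 min, with 2.93. Replicate 1 at 3 h stood apart in cell markers, with a mean log2 value over 19 alveolar type II markers of 10.97 against 11.59 and 11.40 in the other 3 h lungs and 11.46 to 11.53 at 30 min. Its mean over 12 neutrophil markers was 10.34, against 9.49 and 9.05 at 3 h and 8.63, 9.83 and 8.76 at 30 min. The mean over 16 markers of cardiac muscle, which sheathes the pulmonary veins, was 8.40 in replicate 3 at 30 min and between 6.68 and 6.89 in the other 5 left lungs. The part of these differences in the results below was not tested beyond the values given without the arrays concerned.

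**Figure D1:**
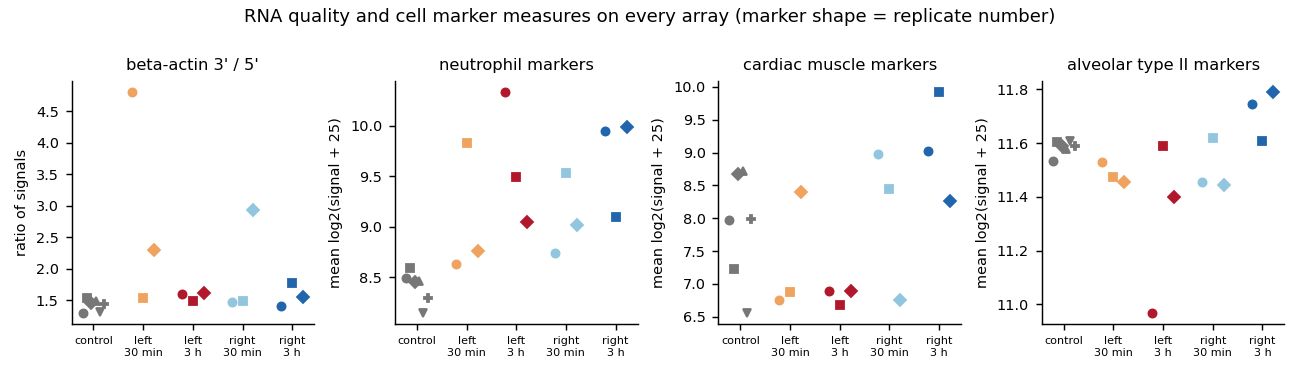
Each panel plots a measure for all 18 arrays, by group, with the marker shape giving the replicate number. The y axes are the 3′ over 5′ signal of beta-actin (a ratio) and the mean log2(signal + 25) over 12 neutrophil, 16 cardiac muscle and 19 alveolar type II markers. The actin ratio reaches 4.81 and 2.30 in left lungs at 30 min, and the alveolar type II mean is lowest, at 10.97, in 1 left lung at 3 h.

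Among called genes, the largest rises from 30 min to 3 h of reperfusion in the clamped lung were mostly those of chaperones and their partners. The largest falls among called genes were of mixed function, with 4 listed matrix genes among the smaller falls. Genes that were not called are outside these rankings, and their differences reached 1.93 in the list of apoptosis and cell cycle arrest and -2.29 over all genes tested. Of 7728 genes tested, 95 were called higher at 3 h (1.23%) and 142 lower (1.84%), which is 3.07% in all. The median difference was 0.80 among the higher genes and -0.71 among the lower genes, against -0.06 over all genes tested, and 29 higher and 27 lower genes differed by 2-fold or more. In each of the 237 called genes the 3 signals at 3 h lay wholly above or wholly below the 3 at 30 min, while over all genes tested 8.19% lay wholly above and 1082 of 7728 wholly below (14.0%). Counted as probe sets, 366 of 10533 were called (3.47%), 168 higher and 198 lower, and 2337 had an unadjusted p under 0.05. Of these probe sets 9.12% lay wholly above and 13.7% wholly below. The share of called probe sets that were higher was 45.9%, and it was 63.6% (215 higher and 123 lower) with each array centred on its median and 56.4% (150 and 116) with quantile normalization, so the balance of rises and falls depends on the scaling.

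How many genes were called rested on single arrays. Without replicate 1, 2 or 3 at 3 h, 35, 77 and 218 of the 237 genes were still called, and without replicate 1, 2 or 3 at 30 min, 36, 190 and 62. A set of 28 genes, 18 higher and 10 lower, was called whichever of these 6 arrays was left out. With the 6 left arrays alone in the fit, 15 of the 237 were still called. Leaving out the 3 arrays of raised actin ratio left 1 array at 30 min, whose spread was taken to be that of the other groups. All 237 genes kept their sign there, which was fixed beforehand because their left groups did not overlap. Among the 15 largest rises, 11 were called in every such leave-one-out fit and 7 without the arrays of raised actin ratio. Among the 15 largest falls the counts were 2 and 0.

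The heat shock chaperones rose as a group in the clamped lung. Of 36 listed genes of cytosolic and mitochondrial chaperones, their co-factors and heat shock factors, 30 were tested, and 14 of these were higher at 3 h and none lower. The median difference over the 30 genes was 0.58, against -0.06 over all genes tested. Of the 30 differences 29 were above 0, against 41.1% over all genes tested. The list was drawn up with earlier results of these data known, so its count is a description. The mean log2 value over the 30 genes was 11.10, 10.87 and 10.80 in the left lungs at 3 h and 10.14, 10.05 and 10.01 at 30 min. It lay between 9.95 and 10.22 in the control lungs and between 9.93 and 10.29 in the right lungs at both times, so the 3 clamped lungs at 3 h were above all 15 other lungs. The count of called members was 10 to 15 over the fits that left out a left array, lowest without replicate 1 at 3 h. It was 7 with the 6 left arrays alone in the fit. Without the arrays of raised actin ratio the list's median was 0.63.

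Hspa1a, an inducible Hsp70 that refolds damaged proteins, had the largest rise of the genes tested, each read from its brightest probe set. Its signal was 12648, 11284 and 11863 in the left lungs at 3 h and 2196, 2203 and 1696 at 30 min, while the control lungs ran from 856 to 1452 with a median of 1108. The 2 left groups were far apart, and the lungs at 30 min were all above the highest control. The difference between the times was 2.55 ± 0.31 (SE, n = 3 and 3), or 5.85-fold, with limma's adjusted p of 0.000218, and it was 2.42 with adjusted p of 0.0209 without the arrays of raised actin ratio. At 3 h the Hspa1a signal lay near the top of the scale, with 2, 10 and 5 probe sets brighter on the 3 arrays and a highest signal of 12762 on the first of them; whether the scale limits the measured rise was not tested.

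Hsph1, the Hsp110 that exchanges nucleotide on Hsp70, had signals of 8041, 6487 and 6065 at 3 h against 1724, 1023 and 1386 at 30 min, a difference of 2.32 ± 0.26 (4.98-fold, adjusted p 0.000111 by limma). The J-domain proteins hand clients to Hsp70, and 4 of them were called. Dnaja1 had signals of 8216, 5813 and 6821 at 3 h against 1737, 1730 and 1433 at 30 min, and its difference of 2.06 ± 0.18 had the lowest adjusted p of all genes tested (6.05e-06 by limma). Dnajb1 had 4255, 2928 and 4666 against 1125, 1113 and 878, a difference of 1.88 ± 0.19. In these genes no lung at 3 h came near the range at 30 min. A second tested probe set gave 1.94 for Dnaja1 and 2.93 for Dnajb1, both called. The smaller rises were those of Dnaja4 (1.05 ± 0.13) and Dnajb4 (0.67 ± 0.14).

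The small heat shock proteins hold unfolded proteins in a state from which Hsp70 can recover them. Hspb1, the rat Hsp27, had signals of 12667, 10933 and 11223 at 3 h and of 2454, 3676 and 2492 at 30 min, a difference of 2.03 ± 0.23 (4.08-fold, adjusted p 0.000111 by limma). On the first array at 3 h it too lay near the top of the scale, whose highest signal there was 12762. It stayed called with each left array left out in turn, and without the arrays of raised actin ratio its difference was 1.65 with adjusted p of 0.0673. Hspb8 had 1279, 1189 and 714 against 471, 375 and 421, a difference of 1.24 ± 0.25, and its second probe set gave 1.03. Bag3, the partner of Hspb8 that links Hsp70 clients to autophagy, had 5092, 2778 and 4336 against 1479, 1401 and 1355, a difference of 1.47 ± 0.22. Cryab, a further small heat shock protein, was not called, with 0.74 ± 0.23 and an adjusted p of 0.0811 by limma.

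The mitochondrial pair Hspd1 and Hspe1, which form the Hsp60 folding chamber and its lid, rose together. Hspd1 had signals of 8940, 7182 and 6283 at 3 h and of 2755, 1930 and 2046 at 30 min, a difference of 1.73 ± 0.21. Hspe1 had 6135, 4607 and 3956 against 2335, 1723 and 1909, a difference of 1.28 ± 0.19. Both orders of arrays were alike, replicate 1 being highest at each time. Among the partners of Hsp90, Stip1, which joins Hsp70 to Hsp90, had a difference of 1.16 ± 0.15, and the Hsp90-binding protein Chordc1 one of 1.18 ± 0.24. Hsp90ab1, the constitutive Hsp90, had 7562, 7472 and 7694 against 6076, 4398 and 4600, a difference of 0.60 ± 0.16 with adjusted p of 0.0474 by limma, and its call was lost whichever left array was left out. Calls of Hspb8 and Chordc1 were lost without replicate 1 or 2 at 3 h or replicate 3 at 30 min (adjusted p up to 0.0983 by limma), and that of Dnajb4 without replicate 1 of either time (up to 0.116).

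The 16 members that were not called had differences from -0.14 to 0.74. They included all 8 tested subunits of the TRiC chaperonin, which folds actin and tubulin, with differences from 0.09 for Cct6a to 0.46 for Cct3. Hsf1, the gene of the heat shock factor itself, had signals of 340, 330 and 384 at 3 h and of 423, 384 and 358 at 30 min, with a difference of -0.14 ± 0.12 and adjusted p of 0.541 by limma. Its groups overlapped.

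**Figure D2:**
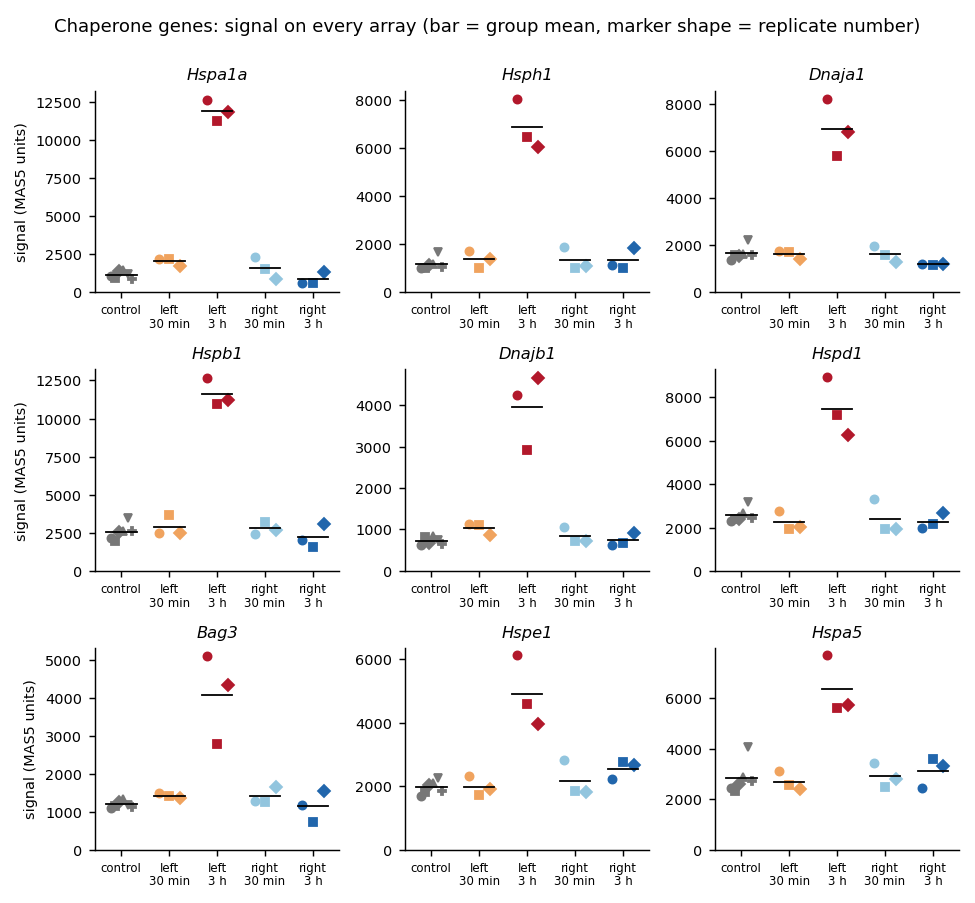
Signal (MAS5 units, linear axis from 0) of 9 chaperone genes on all 18 arrays, by group, with a bar at the group mean and the marker shape giving the replicate number. In each panel the 3 left lungs at 3 h lie above every other lung, as for Hspa1a with 11284 to 12648 at 3 h against at most 2300 elsewhere.

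Since these genes moved together, their promoters were read for the sequence that HSF1 is known to bind. RefSeq promoter windows of 300 bases (build GRCr8, 250 before to 50 after the gene start) were matched by gene identifier to 13 of the 14 called chaperones and to 6460 of the 7728 genes tested. A gene with several windows was counted once, by a match in any of them. Counts of windows below are thus counts of genes, except for the 33469 RefSeq windows. A head-to-head pair of units, GAANNTTC, occurred in 9 of the 13 windows, against 5.93% of the windows of genes tested and 8.59% of all 33469 RefSeq windows. The tail-to-tail pair TTCNNGAA occurred in 6 of 13, against 6.98% and 8.77%. Both pairs read the same on either strand. The run of 3 units, GAANNTTC followed by NN and GAA, searched on both strands and made of 1 pair of each kind, occurred in 5 of 13, against 0.526% and 0.798%. Those 5 were Hsph1, Dnaja1, Hspd1, Hspe1 and Chordc1. Among the 14 windows of chaperones that were not called, 2 held the head-to-head pair and 3 the tail-to-tail pair. The run of 3 lay in 1 of them, that of Cct4. Among 116 windows of genes called lower, 6 held the head-to-head pair, 10 the tail-to-tail pair and 1 the run of 3. These are counts of letters in a window, with no test and no measure of binding.

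The windows below show how the units lie. Capitals mark every match to either pair, so that overlapping pairs make up the runs of 3 units. They are at chr12:10427118-10427417 (plus strand) for Hsph1, chr5:60638154-60638453 (plus strand) for Dnaja1, chr9:64083988-64084287 (minus strand) for Hspd1, chr8:23650571-23650870 (plus strand) for Chordc1 and chr19:41431092-41431391 (minus strand) for Dnajb1.
Hsph1: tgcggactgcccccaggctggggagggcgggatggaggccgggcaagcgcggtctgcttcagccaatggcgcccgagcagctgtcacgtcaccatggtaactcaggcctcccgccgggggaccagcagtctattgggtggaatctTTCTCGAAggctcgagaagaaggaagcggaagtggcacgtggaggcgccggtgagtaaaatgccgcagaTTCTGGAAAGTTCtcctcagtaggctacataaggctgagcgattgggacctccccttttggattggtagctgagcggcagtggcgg
Dnaja1: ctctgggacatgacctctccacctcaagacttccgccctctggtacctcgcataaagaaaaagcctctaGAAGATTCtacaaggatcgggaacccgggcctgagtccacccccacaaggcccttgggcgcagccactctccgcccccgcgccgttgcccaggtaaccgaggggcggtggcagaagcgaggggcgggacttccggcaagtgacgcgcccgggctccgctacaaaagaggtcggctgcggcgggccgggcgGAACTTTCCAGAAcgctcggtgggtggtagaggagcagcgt
Hspd1: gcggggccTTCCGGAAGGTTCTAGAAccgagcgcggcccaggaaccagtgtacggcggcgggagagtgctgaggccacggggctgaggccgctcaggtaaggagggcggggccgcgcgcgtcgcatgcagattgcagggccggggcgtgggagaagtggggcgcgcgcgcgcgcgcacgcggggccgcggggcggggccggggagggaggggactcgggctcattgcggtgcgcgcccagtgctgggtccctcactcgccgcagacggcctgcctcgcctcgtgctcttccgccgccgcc
Chordc1: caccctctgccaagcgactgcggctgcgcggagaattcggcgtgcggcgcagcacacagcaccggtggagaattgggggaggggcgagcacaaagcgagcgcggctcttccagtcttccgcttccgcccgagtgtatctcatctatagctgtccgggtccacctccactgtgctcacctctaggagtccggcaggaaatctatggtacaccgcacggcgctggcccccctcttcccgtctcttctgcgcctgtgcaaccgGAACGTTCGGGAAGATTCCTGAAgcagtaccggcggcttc
Dnajb1: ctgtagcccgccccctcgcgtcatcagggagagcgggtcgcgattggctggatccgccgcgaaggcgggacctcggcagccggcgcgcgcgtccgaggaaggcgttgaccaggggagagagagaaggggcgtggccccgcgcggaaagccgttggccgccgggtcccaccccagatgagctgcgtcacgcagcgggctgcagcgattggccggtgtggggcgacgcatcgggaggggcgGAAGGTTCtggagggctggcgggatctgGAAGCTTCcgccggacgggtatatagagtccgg

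In Hsph1 the run of 3 units begins 36 bases before the start, and in Dnaja1 it lies within the first 50 transcribed bases. Hspd1 and Hspe1 are neighbours read in opposite directions, and their windows share 211 bases; the same run lies 242 bases before the start of Hspd1 and 65 before that of Hspe1. The Chordc1 run holds 3 overlapping matches from base 11 after the start. Dnajb1 has 2 head-to-head pairs, at 11 bases before and 18 bases after the start, and Hspb1 has 2, at 129 and 109 bases before it. No match to these letters was found for Hspa1a. A window was available for 13 of the 14 called chaperones, and these counts do not say whether Hspa1a was among them. Only exact matches inside a window were counted. The lack of a match is therefore no evidence that the Hspa1a promoter lacks heat shock elements.

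Some chaperones of the endoplasmic reticulum rose too. In the list of the unfolded protein and integrated stress response, 6 of 28 tested genes were higher at 3 h and 1 lower. Over all genes tested, 1.23% were higher and 1.84% lower. The median difference of the list was 0.42. Hspa5, the BiP chaperone that holds the stress sensors silent, had signals of 7711, 5624 and 5732 at 3 h and of 3109, 2569 and 2406 at 30 min, a difference of 1.22 ± 0.20 (2.33-fold, adjusted p 0.00389 by limma). The groups were well apart, but the highest control lung reached 4066. Hsp90b1, the Hsp90 of this compartment, had 5196, 4495 and 4188 against 3161, 2482 and 2728, a difference of 0.73 ± 0.14. Calr, a calcium-binding chaperone of glycoproteins, had a difference of 0.58 ± 0.12. Ddit3, the CHOP transcription factor induced through PERK, had 605, 531 and 597 against 404, 288 and 219, a difference of 0.91 ± 0.21. Sdf2l1 (0.57 ± 0.14) and Sel1l (0.58 ± 0.15), both of protein quality control, had signals at 3 h inside or near the control range, and were below it at 30 min. Syvn1, the ubiquitin ligase that works with Sel1l in the disposal of misfolded proteins, was lower at 3 h, by -0.58 ± 0.14, and it was not called with arrays centred on the median or quantile normalized. Atf4 (0.54, adjusted p 0.0518 by limma) and Xbp1 (0.31, adjusted p 0.329) were not called.

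The count of 6 higher members fell to 1 without replicate 1 at 3 h, to 2 without replicate 2 at 3 h or replicate 3 at 30 min, to 3 without replicate 1 at 30 min, and was 10 without replicate 3 at 3 h. It was 0 without the arrays of raised actin ratio, where the list's median was 0.38. Hspa5 alone among the 7 stayed called without each left array in turn.

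The known response element of these genes, ERSE, was searched on both strands as CCAAT and CCACG with 9 bases of any kind between them. It occurred in 3 of the 6 windows of called higher members, those of Hspa5, Hsp90b1 and Calr, in 4 of the 17 windows of members not called, and in 0.232% of the windows of genes tested. The fourth called gene with the element was Zfand2a. The windows of Hspa5 (chr3:38452766-38453065, plus strand) and Hsp90b1 (chr7:23012244-23012543, minus strand) are shown with the element in capitals; in Hsp90b1 it occurs on both strands.
Hspa5: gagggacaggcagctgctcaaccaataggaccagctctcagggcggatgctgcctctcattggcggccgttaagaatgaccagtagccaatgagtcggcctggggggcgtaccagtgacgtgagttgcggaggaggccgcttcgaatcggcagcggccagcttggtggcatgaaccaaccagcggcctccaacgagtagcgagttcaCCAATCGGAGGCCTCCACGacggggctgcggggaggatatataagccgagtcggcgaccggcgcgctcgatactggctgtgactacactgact
Hsp90b1: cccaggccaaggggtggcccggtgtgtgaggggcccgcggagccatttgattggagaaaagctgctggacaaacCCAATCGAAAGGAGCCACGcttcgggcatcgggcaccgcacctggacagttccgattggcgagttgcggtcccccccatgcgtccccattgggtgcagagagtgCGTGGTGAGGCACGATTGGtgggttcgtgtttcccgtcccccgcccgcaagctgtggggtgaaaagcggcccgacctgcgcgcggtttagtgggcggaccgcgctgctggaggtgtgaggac

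**Figure D3:**
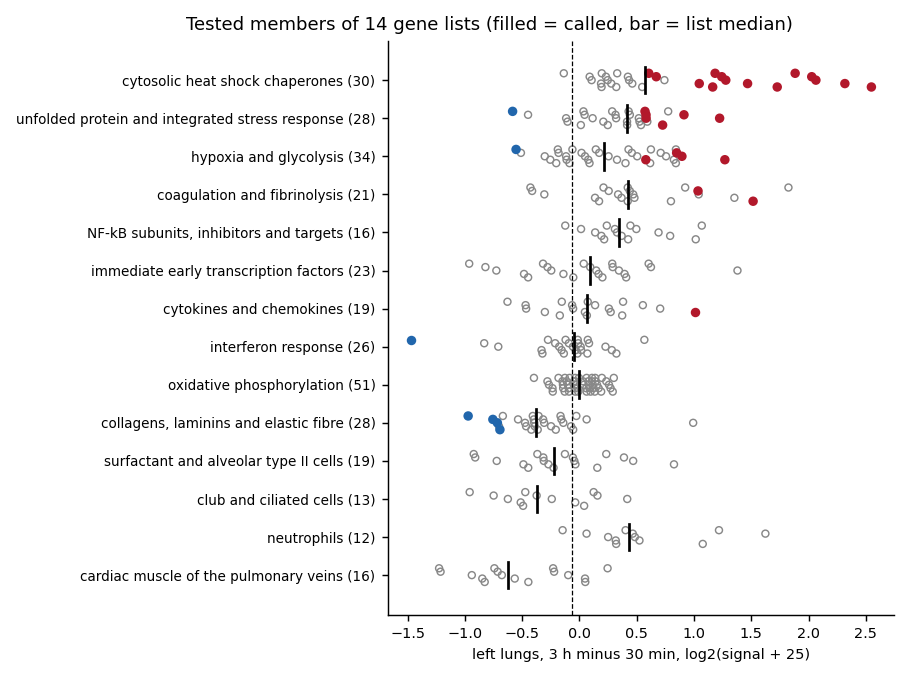
Difference between 3 h and 30 min in the left lungs, in log2(signal + 25), for every tested member of 14 gene lists, with the number of members after each name. Filled points are called genes (red higher, blue lower), black bars are list medians and the dashed line is the median of all genes tested, -0.06. The heat shock list lies farthest to the right, with a median of 0.58 and 14 filled points.

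Some of the other large rises were genes of stress, oxygen and inflammation. Zfand2a, an arsenite-inducible protein that binds the proteasome, had signals of 3703, 1788 and 1611 at 3 h against 547, 668 and 553 at 30 min, a difference of 1.86 ± 0.26 (adjusted p 0.000751 by limma). P4ha1, the catalytic subunit of collagen prolyl hydroxylase and a gene raised by hypoxia, had 1650, 1297 and 1328 against 610, 489 and 632, a difference of 1.27 ± 0.14 (adjusted p 0.000111 by limma) that was 1.49 without the arrays of raised actin ratio. At 30 min its signals lay below the lowest control lung, at 714, and at 3 h above the highest, at 980. Of 34 tested genes of hypoxia and glycolysis, 4 were higher (1.23% over all genes tested) and 1 lower (1.84%), with a median of 0.21. Beside P4ha1 these were Tpi1 (0.85 ± 0.16) and Pfkp (0.58 ± 0.14) of glycolysis, the mitophagy receptor Bnip3 (0.89 ± 0.22), and Ldhb, the heart-type lactate dehydrogenase subunit, which was lower by -0.55 ± 0.15. The count of higher members was 1 without replicate 3 at 30 min, 2 without replicate 1 at 30 min or replicate 1 or 2 at 3 h, and 6 without replicate 3 at 3 h. Vegfa (-0.06) and Slc2a1 (0.62), other targets of hypoxia-inducible factors, were not called (adjusted p 0.884 and 0.0817 by limma).

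Fgl2, a membrane protein with prothrombinase activity, had signals of 2863, 1067 and 752 at 3 h and of 325, 735 and 369 at 30 min, a difference of 1.52 ± 0.41 with adjusted p of 0.0489 by limma. Replicate 1 at 3 h was far above the rest, and without it the difference was 0.97. The plasminogen activator Plat had 4359, 3532 and 2725 against 1497, 1852 and 1721, a difference of 1.03 ± 0.24. These 2 were the called members of 21 tested genes of coagulation and fibrinolysis, whose median was 0.42. Of all genes tested, 1.23% were called higher. Ltb4r, the leukotriene B4 receptor that draws neutrophils, had 385, 213 and 222 against 105, 72.9 and 80.1, a difference of 1.39 ± 0.34. Serpinb1a, an inhibitor of neutrophil proteases, had 5174, 2527 and 1841 against 926, 1625 and 986, a difference of 1.32 ± 0.29. Replicate 1 at 3 h, which had the highest neutrophil marker mean, was also the highest in Fgl2, Plat, Ltb4r and Serpinb1a. Replicate 2 at 30 min had the next highest mean of the left lungs. It was the highest lung at 30 min in Fgl2, Plat and Serpinb1a but the lowest in Ltb4r. The part of neutrophils in these rises was not tested. All 4 of these calls were lost without replicate 1 at 3 h, and without replicate 1 or 3 at 30 min. The adjusted p reached 0.237 for Fgl2 and 0.130 for Serpinb1a by limma.

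Further called rises were 1 or 2 members of their lists. With 1.23% of all genes tested called higher, counts this small are no result about the lists. Csf1, the growth factor of macrophages, had 685, 842 and 865 at 3 h against 302, 499 and 370, a difference of 1.01 ± 0.21, and was the 1 called gene among 19 tested cytokines and chemokines. Clu, the secreted chaperone clusterin, had 4621, 3970 and 3522 against 1666, 2511 and 1729, a difference of 1.04 ± 0.23. Id1 (0.71 ± 0.13) and Id3 (0.90 ± 0.22), targets of bone morphogenetic protein signals, were the 2 called among 29 genes of TGF-beta and BMP signalling. Both had been low at 30 min: Id3 had 876, 1117 and 667 then and 1717, 1942 and 1328 at 3 h, against 1992 to 2949 in the control lungs. Gadd45a (0.77 ± 0.19) and Gadd45b (0.70 ± 0.18), of the response to DNA damage, were the 2 called among 26 genes of apoptosis and cell cycle arrest. Of these 6 genes only Id1 was called in each leave-one-out fit; Clu, Id3 and Gadd45b lost their calls without replicate 1 or 2 at 3 h or replicate 1 or 3 at 30 min, Csf1 without replicate 2 at 3 h or the same 2 arrays at 30 min, and Gadd45a without replicate 1 at either time or replicate 3 at 30 min (adjusted p up to 0.210 by limma).

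The 15 largest falls among called genes ranged from -2.04 to -1.16 and were of varied function. Arhgef40 had signals of 18.5, 22.4 and 36.8 at 3 h, close to the pseudocount, and of 143, 168 and 249 at 30 min, a difference of -2.04 ± 0.45 (4.11-fold lower, adjusted p 0.0260 by limma). The right lungs spanned 22.5 to 212 for this gene, and so overlapped both. Mx2, an interferon-induced GTPase, had 170, 161 and 209 at 3 h and 539, 514 and 567.6 at 30 min, a difference of -1.47 ± 0.24 (adjusted p 0.00337 by limma). Its 30 min lungs were above the highest control lung, at 374, and its 3 h lungs mostly below the lowest, at 205. It was the 1 called gene among 26 tested of the interferon response, whose median was -0.04. Of all genes tested, 1.84% were called lower. Nup210, a membrane protein of the nuclear pore, had 134, 204 and 262 against 517, 457 and 551, a difference of -1.28 ± 0.21. Mx2 and Nup210 were the 2 of the 15 that stayed called without each left array in turn.

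The other 13 were Skic2, a helicase of cytoplasmic RNA decay (-1.77 ± 0.45), Armcx4 (-1.76 ± 0.38), Dmtn, an actin-bundling protein of the membrane skeleton (-1.67 ± 0.30), Mn1 (-1.36 ± 0.32), Neb, nebulin of the muscle thin filament (-1.27 ± 0.33), Lrrn3 (-1.25 ± 0.25), Tnrc18 (-1.25 ± 0.24), the hydroxysteroid dehydrogenase Akr1c14 (-1.25 ± 0.27), the phosphatase Ptp4a3 (-1.24 ± 0.31), Atosa (-1.20 ± 0.26), the enoyl-CoA isomerase Eci3 (-1.18 ± 0.29), the potassium channel Kcnj15 (-1.16 ± 0.22) and Arhgef40. Of these 13, 12 lost their call without replicate 1 at 3 h and 12 without replicate 1 at 30 min, 9 without replicate 3 and 4 without replicate 2 at 30 min, and 5 and 1 without replicates 2 and 3 at 3 h, with adjusted p up to 0.189 by limma. A second probe set of Kcnj15 gave 0.14 and one of Akr1c14 -1.68, neither called. The falls stood differently to the control lungs. Kcnj15 had 1176, 2053 and 1015 at 3 h and 3357, 2817 and 2979 at 30 min, with controls from 1361 to 1926, while Tnrc18 had 143, 186 and 335 and 567, 502 and 526.3, with controls from 449 to 709. Kcnj15 was thus above all controls at 30 min and on both sides of their range at 3 h, while Tnrc18 was within the range at 30 min and below it at 3 h.

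Some matrix genes fell. Of 28 tested collagens, laminins and elastic fibre genes, 4 were called lower (1.84% over all genes tested) and none higher. The median was -0.38, and 26 of 28 differences were below 0. Over all genes tested, 41.1% of differences were above 0. With arrays centred on the median, 5 of the 28 were above 0. In 17 of the 28 all 3 signals at 3 h were below all 3 at 30 min, against 1082 of all 7728 genes tested (14.0%). Col1a1, a chain of type I collagen, had signals of 1080, 1180 and 1811 at 3 h and of 2365, 3136 and 2416 at 30 min, a difference of -0.97 ± 0.24 (adjusted p 0.0347 by limma). Fbln5, which assembles elastic fibres, had 610, 703 and 870 against 1244, 1138 and 1220, a difference of -0.72 ± 0.17. The basement membrane genes Lama2 (-0.69 ± 0.15) and Col15a1 (-0.76 ± 0.20) were the others. Dcn, the proteoglycan decorin, went the other way without being called (0.99 ± 0.31, adjusted p 0.0793 by limma). The count of 4 fell to 0 without replicate 1 or 2 at 3 h or replicate 1 at 30 min, to 1 without replicate 3 and 2 without replicate 2 at 30 min, and was 4 without replicate 3 at 3 h. It was 2 with arrays centred on the median, where the list's median was -0.30, and 0 without the arrays of raised actin ratio, where it was -0.35.

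Pdgfrb, the receptor of platelet-derived growth factor on pericytes and fibroblasts, had signals of 133, 156 and 227 at 3 h and of 306, 533 and 375 at 30 min, a difference of -1.12 ± 0.18 (adjusted p 0.00255 by limma). It stayed called without each left array in turn and, at -1.53, without the arrays of raised actin ratio. In the list of smooth muscle and fibroblast genes, 3 of 21 were lower (1.84% over all genes tested) and 1 higher (1.23%), with a median of -0.07. Those lower were Pdgfrb, Col1a1 and the leiomodin Lmod1 (-0.88 ± 0.24), and the higher was the methyltransferase Inmt (0.96 ± 0.21). The contractile genes Acta2 (0.03), Tagln (0.15) and Myh11 (-0.35) were not called. In whole lung, fewer cells of a type and less RNA per cell cannot be told apart. Tcf7, a transcription factor of T cells and of the Wnt pathway, had 384, 208 and 317 against 552, 790 and 677. Its difference was -1.11 ± 0.19, and it was the 1 called of 22 tested Wnt pathway genes, which is no result about that list. Dgkz, a diacylglycerol kinase chosen here after its values were seen, had 340, 301 and 279 against 691, 705 and 741, a difference of -1.16 ± 0.17 that was -1.14 without the arrays of raised actin ratio (adjusted p 0.0259 by limma).

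**Figure D4:**
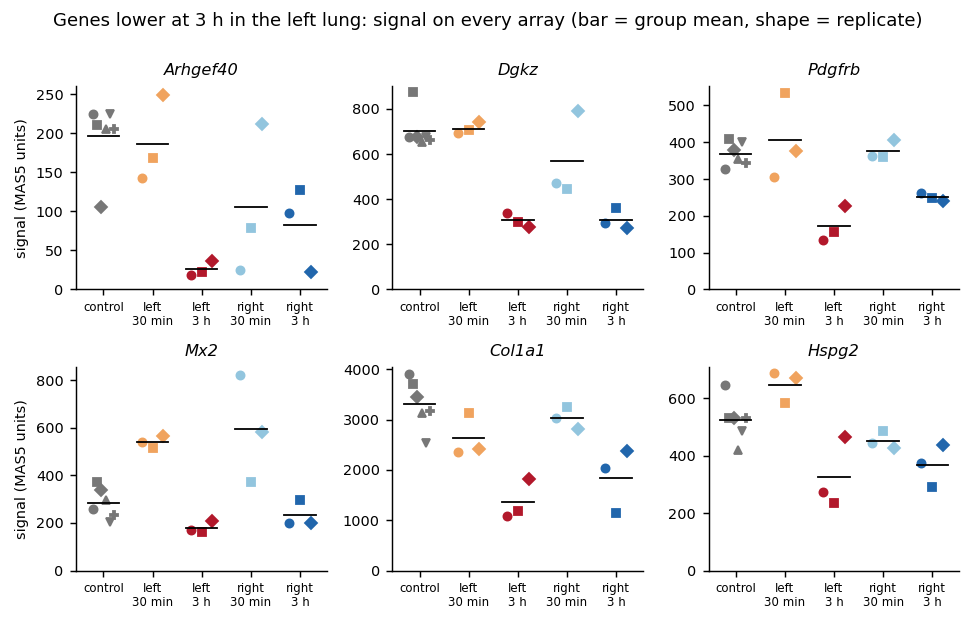
Signal (MAS5 units, linear axes from 0) of 6 genes called lower at 3 h in the left lung, on all 18 arrays, with a bar at the group mean and the marker shape giving the replicate number. In each panel the 3 left lungs at 3 h lie below the 3 at 30 min, as for Dgkz with 279 to 340 against 691 to 741; Hspg2 was chosen after its values were seen.

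The unclamped right lungs were used to ask which of these changes differed between the clamped and the unclamped side. In the right lungs themselves 15 genes were called between the times (0.194%). The change in the left lung exceeded that in the right in 16 genes (0.207%) and fell short of it in 2 (0.0259%), by limma on the difference of changes, and 9 of the 16 were from the heat shock chaperone list. Hspa1a differed most, by 3.43 ± 0.44 (adjusted p 0.00142 by limma), with signals of 596, 583 and 1340 in the right lungs at 3 h and of 2300, 1501 and 892 at 30 min. The differences were 2.48 ± 0.25 for Dnaja1, 2.40 ± 0.32 for Hspb1, 2.30 ± 0.37 for Hsph1, 2.04 ± 0.27 for Dnajb1, 1.79 ± 0.31 for Bag3 and 1.76 ± 0.29 for Hspd1. Stip1 (1.19 ± 0.21) and Dnaja4 (1.01 ± 0.18) were the other 2 chaperones called. Right-lung changes of these 9 lay between -0.89 and 0.03, none of them called. Hspe1 (1.01 ± 0.26, adjusted p 0.250 by limma) and Hspa5 (1.14 ± 0.29, adjusted p 0.233) were called in the left lung, and their difference from the right was not. Counted as probe sets, 24 differed between the sides (0.228%), 22 with the larger left change (0.209%) and 2 with the smaller (0.0190%). The count was 10 without replicate 1 of the right lungs at 3 h, 13 without replicate 3 of the left at 30 min, 14 without replicate 2 or 3 of the right at 30 min, 15 without replicate 1 of the left at either time, and 5 without the arrays of raised actin ratio. The fit took all lungs as independent, and with time and replicate number taken as the rat the count was 4.

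Outside the chaperones, Zfand2a (1.91 ± 0.37), P4ha1 (1.46 ± 0.20) and Ddit3 (1.59 ± 0.30) were among the genes with the larger left change, not all of which are given here. Ddit3 had signals of 229, 213 and 187 in the right lungs at 3 h and of 255, 448 and 371 at 30 min, so that its levels moved apart. In the other direction, Mylip, the ubiquitin ligase that degrades the LDL receptor, differed by -1.09 ± 0.19 (adjusted p 0.0213 by limma). Its left signals were 1004, 1003 and 787 at 3 h and 1379, 1222 and 1473 at 30 min, and its right signals 1057, 858 and 857 at 3 h and 708, 558 and 594 at 30 min. Patz1, a zinc-finger transcription factor, differed by -0.79 ± 0.15, with 115, 110 and 118 at 3 h and 239, 203 and 230 at 30 min on the left, and right signals from 152 to 202.

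Genes called higher in the left lung had a median change of 0.13 in the right lung, and genes called lower one of -0.31, against -0.02 over all genes tested. The right change had the sign of the left in 71 of the 95 higher genes (74.7%) and in 131 of the 142 lower genes (92.3%). Over all genes tested, with both directions and small changes included, it had that sign in 64.0%, and 46.7% of right changes were above 0. The 2 comparisons share no array. By the protocol both lungs of the operated rats were taken, though which left and right lung belong to the same rat is not given, and replicate 3 of the right lungs at 30 min had a raised actin ratio as had replicates 1 and 3 of the left. Fgl2 (1.52 on the left and 1.04 on the right), Serpinb1a (1.32 and 1.18), Mx2 (-1.47 and -1.22) and Col1a1 (-0.97 and -0.77) were of similar size on both sides. Their differences between the sides had adjusted p from 0.89 to 0.96 by limma, and the SE of those differences, 0.33 to 0.58, leaves room for sizeable ones. Among the right-lung values only that of Mx2 was called.

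**Figure D5:**
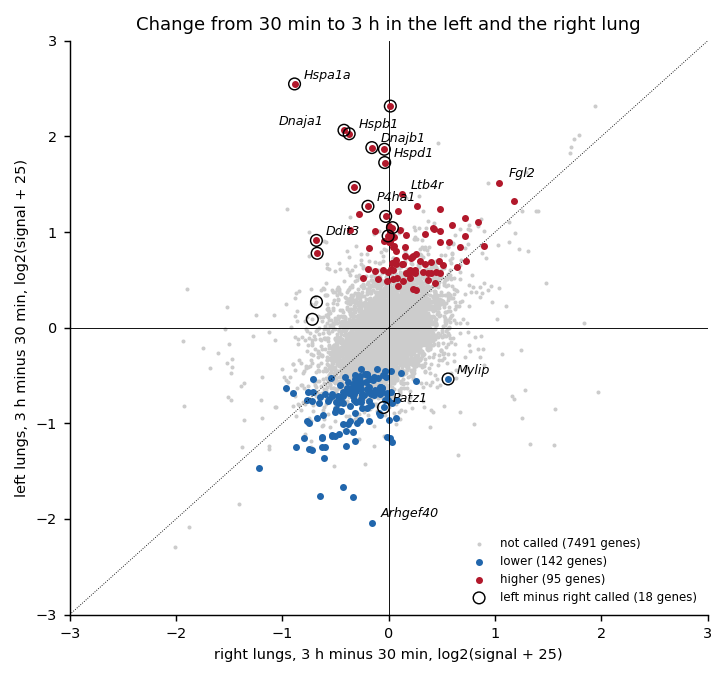
Change from 30 min to 3 h, in log2(signal + 25), in the right lungs (x axis) and the left lungs (y axis) for 7728 genes, with called genes in colour (95 higher, 142 lower) and a ring around the 18 genes whose change differed between the sides. The dotted line marks equal change. The ringed chaperones lie high on the left axis near or left of 0 on the right, while most blue points lie below 0 on both.

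Several lists of injury responses and cell markers had no called member between the times. With 3.07% of all genes tested called, this is no result about lists of 12 to 23 genes. None of 23 tested immediate early transcription factors was called, with a median of 0.09. Egr2 had 497, 290 and 375 at 3 h and 752, 976 and 602 at 30 min (-0.96 ± 0.38, adjusted p 0.145 by limma). Its groups did not overlap, and 14.0% of all genes tested likewise lay wholly below. Atf3 was high at both times, with 3988, 2308 and 4017 at 3 h and 3264, 2246 and 2146 at 30 min against a control median of 325. None of 16 genes of NF-kB was called, with a median of 0.35 and 15 of 16 differences above 0, against 41.1% over all genes tested. The largest was that of Sod2, mitochondrial superoxide dismutase (1.07 ± 0.32, adjusted p 0.0681 by limma). None of 12 neutrophil markers was called (median 0.43), nor of 19 alveolar type II (-0.23), 13 club and ciliated cell (-0.37) or 16 cardiac muscle markers (-0.62). Il1r2, the decoy receptor of interleukin 1 and a neutrophil marker, had 4858, 1745 and 993 at 3 h and 555, 1492 and 317 at 30 min, groups that overlapped (1.62 ± 0.53, adjusted p 0.0896 by limma). Abca3, the lipid transporter of lamellar bodies, had 550, 1436 and 1528 at 3 h and 2177, 1741 and 2202 at 30 min (-0.91 ± 0.27, adjusted p 0.0713), its lowest lung being replicate 1 at 3 h. With 3 lungs a time, differences of this size were not called at the spread seen between lungs.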

How the data were processed

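Total RNA of frozen rat lung was hybridised to 18 Affymetrix arrays, 1 per lung sample, with no pooling stated. The deposited intensity values are MAS5 signals on a linear scale, per the submitters' processing notes, and their version is not given in the sources used here; the series' design text names GeneSpring 7.2. All 15866 probe sets outside the array controls were taken as log2(signal + 25), and those above the 40th percentile of all signals on at least 3 arrays were tested (10533). Symbols came from GEO's platform annotation: 12783 probe sets had 1 symbol, 312 several and 2771 none. A linear model with 5 group means over the 18 arrays was fitted with limma 3.58.1 (R 4.3.3), with Benjamini-Hochberg adjustment over all probe sets tested, for the left lungs at 3 h against 30 min and for the left change against the right change. Tables and figures were made with Python 3.11.15. The fit was tested on simulated data.

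Genes were named if among the 15 largest rises or falls that were called, did not overlap between the groups and had both mean signals above 25, among the 8 largest differences between the sides in each direction, or as members of the gene lists. The comparison and the lists were chosen with earlier results of these data known. Alternatives were a pseudocount of 10 or 50, other filters and scalings, the replicate number as a block, the actin ratio or cardiac markers as a covariate, and arrays left out. The labels do not say more of the animals than a replicate number, so p-values measure the spread between these samples, and the number of arrays limits the precision.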

Additional observations from a re-analysis of the deposited data

Results flagged for a closer look

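In the 6 control lungs, 5 of 46 measures examined had 1 lung set far apart from the others, by the gap to its neighbour over the whole range; chance gives about 1 in 20 such cases. Control replicate 5 was the high lung for Hsph1 (signal 1677), Dnaja1 (2222) and Hspa5 (4066). Control replicate 3 was the low lung for Arhgef40 (106), and control replicate 2 was the low lung for the mean log2 value of 5 mast cell and basophil markers (7.63).

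By limma's test of the difference between the left and the right change from 30 min to 3 h, 18 genes differed, and those with the 8 largest positive differences and both negative ones are given here. The left change was the larger for Hspa1a (3.43 on the log2 scale), Dnaja1 (2.48), Hspb1 (2.40), Hsph1 (2.30), Dnajb1 (2.04), Zfand2a (1.91), Bag3 (1.79) and Hspd1 (1.76). It was the smaller for Mylip (-1.09) and Patz1 (-0.79).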

How the results depend on the processing

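Of the 366 probe sets called between the times in the left lung, the count became 192 with no filter, 60 with the replicate number as a block, 37 with the actin ratio as a covariate, 19 without the 3 arrays of high actin ratio and 27 with the 6 left arrays alone, and 53 to 776 with 1 left array left out. The 24 probe sets that differed between the sides became 11 with the number as a block, 4 with time and number taken as the rat, 14 with the actin covariate, 13 with the cardiac covariate, 5 without the arrays of high actin ratio and 8 with the 12 operated arrays alone, and 10 to 30 with 1 array left out. Other pseudocounts, filters and scalings kept both counts within 1.5 times, except the removal of the filter for the first. Same-numbered left lungs at 30 min and 3 h had correlations of -0.16, -0.08 and 0.28 in their deviations. Differently numbered ones ran from -0.22 to 0.29, and the labels link these samples by no more than a number. Same-numbered left and right lungs had 0.12, 0.31 and 0.15 at 30 min, where differently numbered ones ran from -0.29 to 0.10. At 3 h the same-numbered ones had -0.17, 0.07 and -0.15, and differently numbered ones ran from -0.24 to 0.34. With 3 lungs a group these values do not settle whether the numbers pair the sides. The main fit used no pairing. Over the genes examined singly, 4499 alternatives were run, of which 2443 kept the call and 2056 lost it. None turned its direction. For genes called in the left lung, whose groups did not overlap, leaving out left arrays could not have turned it.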
